A study of Mus musculus with 30 samples.

Results

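Fetal mouse livers exposed in the womb to 10 mg/kg/day of perfluorooctane sulfonate (PFOS, a persistent fluorinated surfactant) were compared with fetal livers exposed to 5 mg/kg/day. The comparison takes 5 liver arrays labelled with the higher dose and 5 liver arrays labelled with the lower dose, 10 of the 30 arrays in all, and every gene measured on them. The question was which gene groups had reached their level at the lower dose and which still differed between the doses. The 5 liver arrays without PFOS serve as the reference level. All dams were CD-1 mice, an outbred stock, and the dams of all groups, the reference included, were gavaged from gestation day 1 to 17, with 0, 5 or 10 mg/kg/day of the potassium salt of PFOS in 0.5% Tween 20. Part of each liver was taken at gestation day 18. The ages of the dams are not stated in the labels. RNA of 3 fetuses was pooled for each litter, so each array is 1 litter and its value averages littermates. The same study also measured fetal lung, which enters here only through 1 alternative fit.

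Perfluorinated acids resemble fatty acids and activate PPARα, the nuclear receptor that switches on fatty acid oxidation in peroxisomes and mitochondria, omega-hydroxylation and lipid droplet proteins in liver. They also activate CAR and PXR, receptors that control drug-metabolising cytochromes P450 and carboxylesterases. The liver near term is still a blood-forming organ, so its RNA mixes hepatocytes with red cell precursors, granulocytes and other cells, while hepatocytes are beginning to make bile acids, glucose and urea. In RNA of whole liver, fewer cells of a type and less RNA per cell cannot be told apart.

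Levels are log2 values, so a difference of 1 is a doubling. A gene was called where the limma test, adjusted over all 13269 genes tested, gave an adjusted p under 0.05. The tissue label held on every array: albumin (Alb) lay between 13.82 and 13.89 and alpha-fetoprotein (Afp) between 12.71 and 12.92 over the 15 liver arrays. Within a dose, r between liver arrays ran from 0.99 to 0.993 over probe sets (which are not independent), and between the 2 doses it covered the same range. Precision is limited by the 5 litters per dose, and the 95% interval of a difference between the doses typically reached 0.19 to either side. The unexposed litters 2, 3 and 5 stood apart in the stomach protease gene Cym, at 11.27, 9.50 and 8.20, while all other livers lay between 4.23 and 5.60. High Cym in unexposed litters touches only the reference level, and the difference between the doses was the same with and without those litters apart from its error. Pancreas protease genes, named here after their values were seen, varied between exposed litters. Ctrb1 was at 7.14, 7.04 and 6.78 in litters 2, 3 and 4 at 5 mg/kg/day. It was at 4.80 and 5.25 in litters 1 and 5 of that dose and between 4.61 and 5.85 at 10 mg/kg/day, a difference between the doses of -0.90 (95% interval -1.93 to 0.12). Cela2a followed the same litters, at 5.84, 6.43 and 6.30 against 2.98 and 3.55 at the lower dose and 3.35 to 4.84 at the higher, with a difference of -1.06 (-2.49 to 0.36). The mean level of the stomach and pancreas list relative to the unexposed livers was -0.16, -0.03 and -0.12 in those 3 litters, -0.57 and -0.47 in litters 1 and 5, and -0.70 to -0.42 at the higher dose. The part of this tissue in the differences between the doses was not tested. The pools also differed in sex make-up: litter 1 at 5 mg/kg/day had low Xist (4.80) and a high mean of Y-linked genes (6.87). Litter 5 at 5 mg/kg/day (10.05 and 2.12) and litter 1 at 10 mg/kg/day (10.10 and 2.15) had high Xist and low Y-linked levels.

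Doubling the dose moved few transcripts past the adjusted test. Between 10 and 5 mg/kg/day limma called 1 of 13269 genes (0.00754%), Lims2, and it was lower at the higher dose. At an unadjusted p under 0.05 there were 1035 genes (7.80%), where chance gives 663. Of these, 347 were higher at 10 mg/kg/day (2.62% of genes tested) and 688 were lower (5.19%), so 33.5% of them were higher, against 46.1% after quantile normalization of the liver arrays and 43.4% without the filter on dim genes. The median difference over all genes was -0.02, and 44.1% of genes had a difference above 0. All 5 litters at 10 mg/kg/day lay above all 5 at 5 mg/kg/day for 47 genes (0.354%) and below them for 106 (0.799%). Against the unexposed livers the same fit called 805 genes at 5 mg/kg/day (6.07%), of which 565 were higher (4.26%) and 240 lower (1.81%). It called 1395 genes at 10 mg/kg/day (10.5%), of which 703 were higher (5.30%) and 692 lower (5.22%). The arrays at 5 mg/kg/day enter both the first of these contrasts and the dose step, so the values are given side by side.

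A plateau is stated here only where the whole 95% interval of the difference between the doses lay within -0.5 and 0.5, since a p above the threshold does not show equal levels. Of all genes tested, 12155 (91.6%) met this bound. Of the 805 genes called at 5 mg/kg/day, 679 (84.3%) met it. Among the 565 that rose at the lower dose, 478 (84.6%) met it, and the median change from the unexposed level was 0.46 at 5 and 0.49 at 10 mg/kg/day. Among the 240 that fell, 201 (83.8%) met it, with medians of -0.39 and -0.43. Genes that vary widely between litters cannot meet the bound, so a gene outside it need not differ between the doses. The bound limits the size of a difference and does not show that there is none. At 0.5 it is wider than the median changes at the lower dose. A gene with such a change could lose all of it and still meet the bound. Several genes named below, such as Decr1, Plin2, Apof, Agpat2, Slc37a4, Ghr and Nt5e, met it with intervals that exclude equal levels. Nt5e met it although it was called at the lower dose and stood near the unexposed level at the higher.

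Lims2, a LIM-domain adaptor of integrin adhesion sites, was the called gene. At 5 mg/kg/day Lims2 read 7.09, 7.27, 7.17, 7.19 and 7.15 in litters 1 to 5, and at 10 mg/kg/day 6.65, 6.56, 6.51, 6.70 and 6.53. Every litter at the higher dose lay below every litter at the lower dose, and the spread within each dose was small (SD 0.06 and 0.08, n = 5). It fell by 0.58 between the doses (SE 0.08, 95% interval -0.75 to -0.41, limma adjusted p = 0.0273). The unexposed livers lay between 7.12 and 7.53, and the lower dose differed from them by -0.17 (limma adjusted p = 0.255) and the higher by -0.75 (1.34e-05). Omitting any of litters 2, 3, 4 and 5 of the lower dose (adjusted p from 0.0803 to 0.125) or litters 1, 2, 3 and 5 of the higher (0.0781 to 0.146) ended the call, while the difference stayed between -0.61 and -0.56. It was also lost when lung arrays joined the model (0.0587) and when each probe set was its own feature (0.0685).

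**Figure D1:**
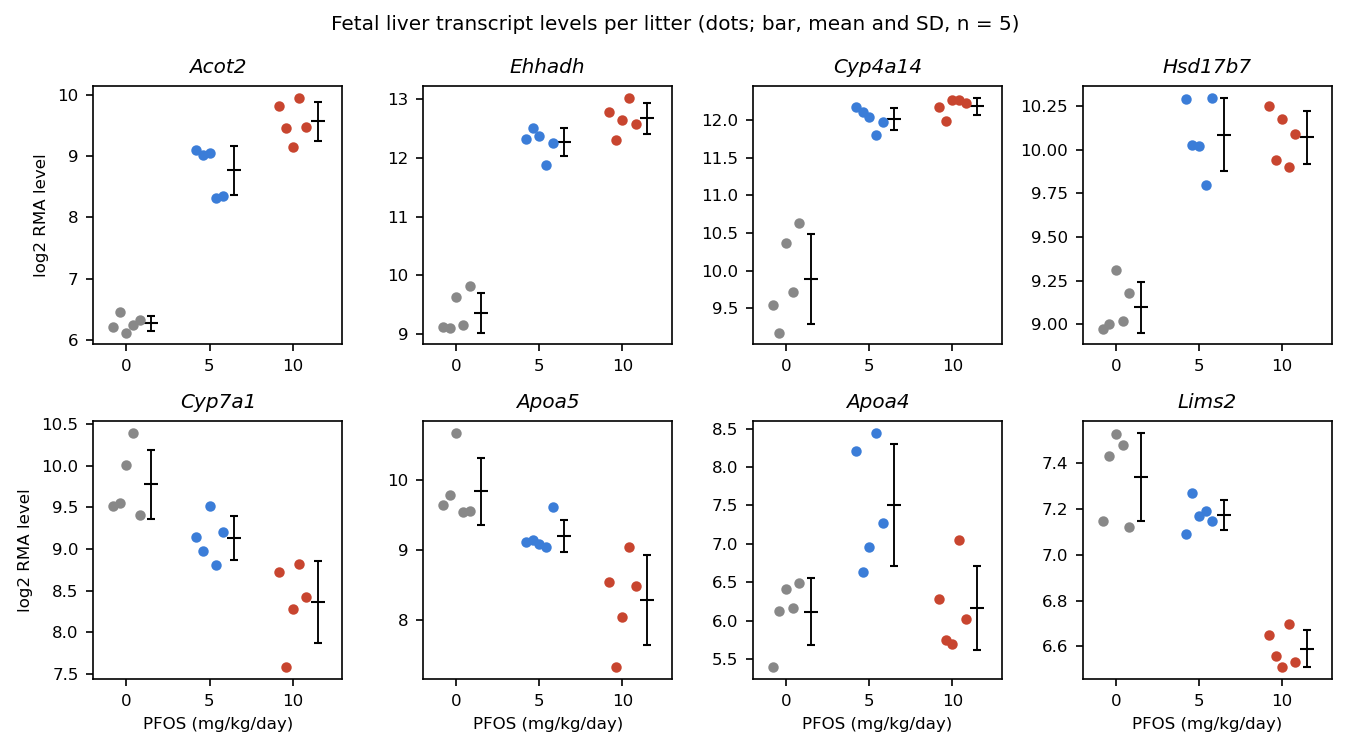
Log2 levels of 8 transcripts in fetal liver (vertical axes) by PFOS dose in mg/kg/day (horizontal axes); dots are litters, 5 per dose, and the bar with whiskers is the mean with its SD. The litters at 10 mg/kg/day lay above those at 5 for Acot2 and below them for Apoa5 and Lims2, without overlap, while Cyp4a14 and Hsd17b7 overlapped.

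Peroxisomal beta-oxidation, which shortens very long fatty acids and is the best known set of PPARα targets in rodents, had most of its change by 5 mg/kg/day and a small further difference at 10. Its 20 tested genes had a median change of 0.64 at 5 and 0.78 at 10 mg/kg/day from the unexposed level. Between the doses 18 of the 20 had a difference above 0 (44.1% of all genes). Their median was 0.11, against -0.02 over all genes. None passed the adjusted test, and 4 had an unadjusted p under 0.05, all higher (background 2.62%), against 10 when the level of erythroid genes was a covariate. Of 13 called at 5 mg/kg/day, 8 met the plateau bound.

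Ehhadh, a bifunctional enzyme of the pathway, read 12.32, 12.51, 12.37, 11.87 and 12.25 at the lower dose and 12.78, 12.31, 12.65, 13.02 and 12.58 at the higher. The doses overlapped through litter 2 at 10 mg/kg/day, and both lay far above the unexposed litters (9.10 to 9.82). The difference between the doses was 0.41 (95% interval 0.06 to 0.75, limma adjusted p = 0.581). Acot4, a peroxisomal acyl-CoA thioesterase, had a difference of 0.44 (0.08 to 0.79, adjusted p = 0.581) and its neighbour in function Acot3 one of 0.34 (0.11 to 0.57, adjusted p = 0.493). The thiolase gene Acaa1b had 0.23 with an interval of -0.14 to 0.60. All 5 litters at 10 mg/kg/day lay above the mean at 5 mg/kg/day for the first 3 of these genes and 4 of 5 did for Acaa1b. Acot genes are close paralogs in a cluster, and the Acot3 probe set is of a kind that can pair with several transcripts, so signal may be shared between them.

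The promoter of Acot4 is shown because its step was among the larger ones of the pathway and it holds a letter match to a spaced repeat that PPARα is known to bind. These are the 250 bases before the RefSeq start of Acot4 (GRCm38.p6, chr12:84038129-84038378, plus strand), with the match in capitals.
Acot4: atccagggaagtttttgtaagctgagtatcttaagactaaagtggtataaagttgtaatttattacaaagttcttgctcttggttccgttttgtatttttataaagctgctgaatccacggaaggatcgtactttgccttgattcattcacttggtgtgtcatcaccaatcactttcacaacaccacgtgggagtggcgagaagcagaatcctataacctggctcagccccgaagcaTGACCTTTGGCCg
The search looked on both strands for GGNCA and AGGNCA in that order with any 1 base between them, where N is any base, and the Acot4 match begins 13 bases before the start, on the opposite strand. This pattern was present in 0.694% of 32851 promoters of the same length. Of 20 peroxisomal beta-oxidation genes, 17 had a promoter in the table, and 2 of them, Acot4 and Acox2, held the pattern. It was in 0 of 18 promoters of the mitochondrial list and 0 of 7 of the omega-oxidation list. In fatty acid and triglyceride synthesis it was in 2 of 19, and in complement, coagulation and plasma proteins in 2 of 41. A match is a description of letters and not a site.

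Mitochondrial beta-oxidation and the carnitine shuttle followed the same course. Of 20 tested genes, 19 had a difference above 0 between the doses (44.1% of all genes), with a median of 0.08. At an unadjusted p under 0.05, 6 were higher (background 2.62%) and 0 lower. None passed the adjusted test. Of 14 called at 5 mg/kg/day, 13 met the plateau bound, against 84.3% of all genes called there. Called or not, 19 of the 20 met it (91.6% of all genes). The list's median change was 0.52 at 5 and 0.62 at 10 mg/kg/day. Decr1, which reduces dienoyl-CoA from unsaturated fatty acids, had a difference of 0.22 (95% interval 0.08 to 0.35, limma adjusted p = 0.481), and Eci1, an enoyl-CoA isomerase, one of 0.23 (-0.01 to 0.47).

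Acot2, the mitochondrial acyl-CoA thioesterase, had the widest step of the oxidation genes. Its levels were 9.10, 9.02, 9.05, 8.32 and 8.34 at the lower dose and 9.81, 9.45, 9.14, 9.95 and 9.47 at the higher, against 6.12 to 6.45 without PFOS. The lowest litter at the higher dose lay just above the highest at the lower dose. The difference of 0.80 (1.74-fold, 95% interval 0.43 to 1.16) had a limma adjusted p = 0.412 (0.0285 to 0.688 over 29 alternatives, under 0.05 only when lung arrays joined the model). A further probe set of Acot2 gave 1.06. Cpt1a, the outer-membrane carnitine palmitoyltransferase, had no called change from the unexposed level at either dose (0.04 and -0.03) and a difference of -0.07 between them (-0.28 to 0.14), while 2 further probe sets gave -0.56 and -0.34.

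Omega-oxidation, in which cytochromes P450 of the 4a family hydroxylate the end of the fatty acid chain, had a median difference of 0.16 over 9 tested genes, 6 of them above 0. Cyp4a14 was at 12.18, 12.11, 12.04, 11.80 and 11.97 at the lower dose and at 12.17, 11.99, 12.26, 12.27 and 12.22 at the higher. The doses overlapped at a level far above the unexposed litters (9.18 to 10.63), and the difference was 0.16 (95% interval -0.27 to 0.59, limma adjusted p = 0.874). Cyp4a12a had 0.38 (0.02 to 0.75, adjusted p = 0.622) and the fatty aldehyde dehydrogenase Aldh3a2 0.22 (-0.01 to 0.44). Of 4 omega-oxidation genes called at 5 mg/kg/day, 1 met the plateau bound. Against the unexposed level the list's median was 0.77 at 5 and 0.57 at 10 mg/kg/day, so the medians fall while the median difference between the doses is above 0.

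Peroxisome biogenesis as a list had a median difference of -0.04 over 17 genes. Pex11a, which drives peroxisome division, and the membrane protein Pxmp4 were its 2 members with an unadjusted p under 0.05, at 0.43 (95% interval 0.11 to 0.75, limma adjusted p = 0.535) and 0.31 (0.07 to 0.56, adjusted p = 0.563). Ketone body synthesis had a median of 0.00 over 4 genes, and Bdh1, the hydroxybutyrate dehydrogenase, met the plateau bound (0.02, interval -0.10 to 0.15) after changes of 0.34 and 0.36 from the unexposed level.

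Lipid droplet and fatty acid handling genes were mixed. Their median difference was 0.09 over 30 genes, with 3 higher and 2 lower at an unadjusted p under 0.05 (background 2.62% and 5.19%). None passed the adjusted test. The list's medians against the unexposed level, 0.56 and 0.49, are again in the opposite order. Hilpda, a droplet protein that restrains lipolysis, read 7.70, 7.02, 6.89, 7.18 and 7.41 at the lower dose and 7.70, 7.81, 7.55, 7.90 and 7.63 at the higher. Its litters overlapped only through litter 1 at the lower dose, and the difference was 0.48 (95% interval 0.21 to 0.75, limma adjusted p = 0.412). Plin2, the main droplet coat protein of liver, had 0.27 (0.09 to 0.45, adjusted p = 0.493). Pdk4, a kinase that holds back glucose oxidation, had 0.37 (0.02 to 0.72, adjusted p = 0.622), and the cytosolic thioesterase Acot1 had 0.30 (-0.07 to 0.68).

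The 2 genes of this list that were lower at an unadjusted p under 0.05 were Plin3 and Fabp2. Plin3, a droplet coat protein named after its values were seen, had all litters at 10 mg/kg/day (7.66 to 7.74) below all at 5 mg/kg/day (7.75 to 8.00), a difference of -0.15 (95% interval -0.26 to -0.03, limma adjusted p = 0.571). Fabp2, the intestinal fatty acid-binding protein, rose by 1.32 at 5 mg/kg/day over the unexposed level and stood at 0.83 above it at 10 mg/kg/day (limma adjusted p = 0.0178), a difference of -0.49 between the doses (95% interval -0.93 to -0.04, adjusted p = 0.614). Fgf21, a secreted PPARα target, differed by -0.33 between the doses (-0.79 to 0.14), after 0.99 and 0.66 from the unexposed level. The Fabp2 value in litter 4 at 5 mg/kg/day was 8.47, the highest of all, and in that litter the gut markers Alpi (5.74) and Vil1 (5.12) were also on the high side of the exposed litters (4.09 to 5.74 and 4.36 to 5.37). The part of gut tissue in the Fabp2 value was not tested.

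**Figure D2:**
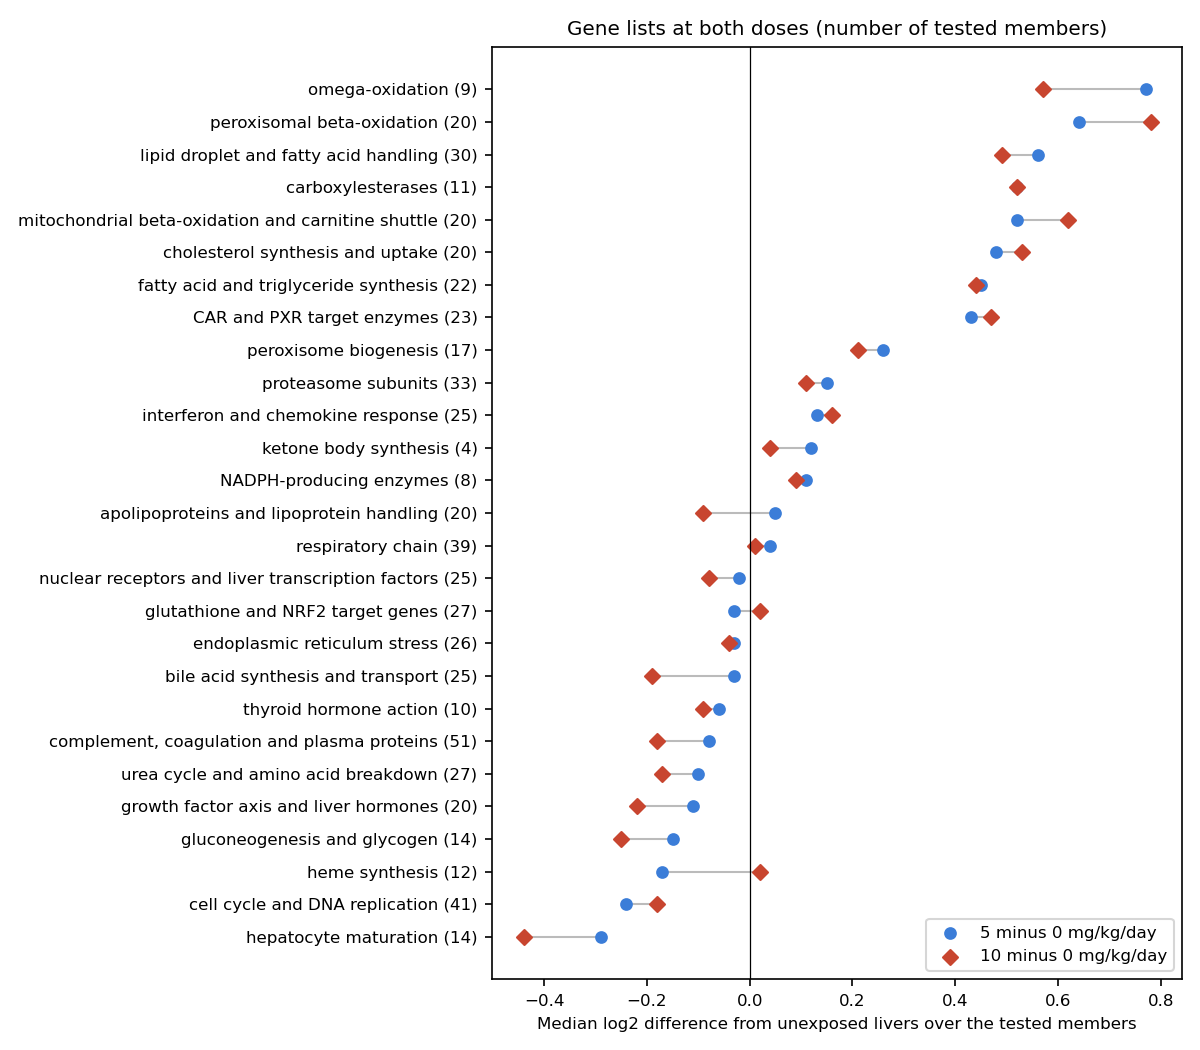
Median log2 difference from the unexposed livers (horizontal axis) for 27 pathway gene lists (vertical axis, number of tested genes in brackets), at 5 mg/kg/day (circles) and 10 mg/kg/day (diamonds). Lipid oxidation and synthesis lists sit to the right at both doses, and the short lines joining the symbols show how little most medians moved between the doses.

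Cholesterol synthesis and uptake, controlled by SREBP transcription factors, had the longest run of called genes within the plateau bound. Of its 20 genes, 14 rose at 5 and 16 at 10 mg/kg/day (4.26% and 5.30% of all genes). All 14 called at the lower dose met the plateau bound, against 84.3% of all genes called there. Called or not, 19 of the 20 met it (91.6% of all genes). The median difference between the doses was 0.01, 11 genes lay above 0 and 9 below, and none had an unadjusted p under 0.05. Hsd17b7, a ketoreductase of sterol synthesis, read 10.29, 10.03, 10.02, 9.80 and 10.30 at the lower dose and 10.25, 9.94, 10.18, 9.90 and 10.09 at the higher, 0.99 and 0.98 above the unexposed livers. The litters of both doses were fully mixed, with a difference of -0.02 (95% interval -0.23 to 0.20). Lss, lanosterol synthase, had 0.15 (-0.05 to 0.36, with further probe sets from -0.07 to 0.21), and Insig1, which retains the SREBP escort protein, had 0.28 with the wider interval of -0.07 to 0.63.

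Fatty acid and triglyceride synthesis had a median difference of 0.01 over 22 genes and 11 of 13 called genes within the bound, a share near the 84.3% of all genes called at the lower dose. Acacb, an acetyl-CoA carboxylase, had 0.14 (95% interval -0.21 to 0.50) and Acss2, an acetyl-CoA synthetase, 0.19 (-0.24 to 0.63). Agpat2, an acyltransferase of triglyceride and phospholipid synthesis, was the 1 gene of this list with an unadjusted p under 0.05. It read 9.14, 9.03, 9.10, 9.07 and 9.22 at the lower dose and 8.89, 8.77, 8.96, 8.81 and 8.77 at the higher, with no overlap. Its difference was -0.27 (-0.42 to -0.12, limma adjusted p = 0.412).

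Me1, the cytosolic malic enzyme that supplies NADPH for lipid synthesis, still stood higher at the upper dose, at 9.31, 8.75, 8.81, 9.05 and 9.07 against 8.64, 8.91, 8.36, 8.18 and 8.63. The difference was 0.45 (95% interval 0.14 to 0.77, limma adjusted p = 0.522), and the doses overlapped through litter 2 at 5 mg/kg/day. The NADPH list had a median of -0.03 over 8 genes. The list of thyroid hormone action, which shares Me1, had a median of 0.02 over 10 genes, and Serpina7, the thyroxine carrier of plasma, had 0.41 (-0.00 to 0.83).

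The targets of CAR and PXR varied more between litters than between doses. Their median difference was 0.03 over 23 genes, 12 of them above 0, with 0 higher and 2 lower at an unadjusted p under 0.05, and 3 of 6 genes called at 5 mg/kg/day met the bound. With the erythroid covariate, an alternative added after the data were seen, 19 of 23 lay above 0, with 8 higher and 1 lower at that p, and without litter 2 of the higher dose 16 did, with 2 higher and 1 lower. Cyp2c29 read 5.46, 7.28, 8.85, 7.95 and 7.79 at the lower dose and 9.43, 7.57, 7.98, 8.11 and 7.48 at the higher. The spread within the lower dose exceeded the step, and the difference of 0.65 had an interval of -0.51 to 1.81. Cyp2b10, the classic CAR target, had 0.28 (-0.07 to 0.63), and Cyp3a11, the classic PXR target, had 0.11 and met the bound (-0.18 to 0.41). Cyp3a16, a fetal P450, had -0.35 (-0.66 to -0.04, limma adjusted p = 0.605).

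Litters 1 and 4 at 10 mg/kg/day stood highest in this list. The mean level of the CAR and PXR list above the unexposed mean was 0.89 and 0.97 in litters 1 and 4 at 10 mg/kg/day, 0.55, 0.37 and 0.21 in litters 3, 5 and 2, and 0.39 to 0.86 at 5 mg/kg/day. Nr1i2, which encodes PXR itself and belongs to the nuclear receptor list, rose by 0.67 and 0.83 from the unexposed level, with 0.16 between the doses (95% interval -0.07 to 0.39). The aldehyde dehydrogenases Aldh1a1 and Aldh1a7 had 0.54 (-0.13 to 1.21) and 0.36 (-0.26 to 0.97).

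The carboxylesterases, hydrolases of esters and amides, had a median of 0.10 over 11 genes, and 2 of 6 called at 5 mg/kg/day met the bound. Ces1e, Ces1f and Ces1g had 0.44, 0.40 and 0.50, each with an interval that includes 0. Ces2e had -0.25 (95% interval -0.43 to -0.06, limma adjusted p = 0.555). Ces1 genes are near-identical neighbours, and the same holds within the Cyp2c and Cyp3a families, so their probe sets may share signal.

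Glutathione and NRF2 target genes had a median of 0.02 over 27 genes with opposite members. Gsta2, a glutathione transferase, read 6.59, 6.02, 6.89, 6.15 and 6.77 at the lower dose and 5.94, 5.72, 6.07, 5.83 and 5.97 at the higher, overlapping only through litter 3 at the higher dose. Its difference was -0.58 (95% interval -0.89 to -0.26, limma adjusted p = 0.412). Srxn1, sulfiredoxin, had 0.33 (0.13 to 0.53, adjusted p = 0.436), and the epoxide hydrolase Ephx1 0.25 (-0.03 to 0.53).

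Bile acid genes were among those that stood lower at the higher dose. Of 25 tested genes, 22 had a difference below 0, with a median of -0.16, against 55.9% of all genes below 0. None passed the adjusted test, 6 were lower at an unadjusted p under 0.05 (background 5.19%) and 1 was higher. From the unexposed level the list's median was -0.03 at 5 and -0.19 at 10 mg/kg/day. At the lower dose 2 genes fell and at the higher 6 (1.81% and 5.22% of all genes).

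Cyp7a1, the enzyme that limits the rate of bile acid synthesis, read 9.14, 8.98, 9.52, 8.81 and 9.21 at the lower dose and 8.73, 7.58, 8.28, 8.82 and 8.43 at the higher. Litter 4 at the higher dose just reached the lower dose's range, and litter 2 stood lowest. The difference was -0.76 (1.70-fold lower, 95% interval -1.24 to -0.29, limma adjusted p = 0.481), and a further probe set also gave -0.76. Cyp39a1, an oxysterol hydroxylase, had 7.55, 7.03, 7.73, 7.33 and 7.93 at the lower dose and 6.94, 6.74, 7.06, 6.51 and 6.89 at the higher. Its doses touched through litters 2 and 3, and the difference was -0.69 (-1.05 to -0.33, adjusted p = 0.412).

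Cyp8b1, the hydroxylase that sets how much cholic acid is made, differed from the unexposed level by 0.15 and -0.36, neither of them called, and its difference between them was -0.51 (95% interval -0.90 to -0.12, limma adjusted p = 0.555). Litter 4 at 10 mg/kg/day, at 10.07, lay within the range at 5 mg/kg/day (9.54 to 10.31), and litter 2 was lowest at 8.79. Nr1h4, the bile acid receptor FXR, had -0.25 (-0.41 to -0.09, adjusted p = 0.482), and the uptake transporter Slco1a1 had -0.25 (-0.60 to 0.09) after changes of -0.72 and -0.97 from the unexposed level.

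The promoter of Cyp8b1 is shown because it holds a letter match to a pattern that the liver factor HNF4A is known to bind. These are the 250 bases before its RefSeq start (GRCm38.p6, chr9:121916306-121916555, minus strand), with the match in capitals.
Cyp8b1: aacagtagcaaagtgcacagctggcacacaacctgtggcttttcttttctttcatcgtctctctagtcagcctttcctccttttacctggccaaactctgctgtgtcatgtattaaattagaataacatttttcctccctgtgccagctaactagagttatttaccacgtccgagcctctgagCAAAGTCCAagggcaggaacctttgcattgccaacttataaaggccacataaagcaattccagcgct
CAAAGTCCA was searched on both strands and was present in 0.384% of 32851 promoters. It begins 67 bases before the start of Cyp8b1, the 1 gene of 21 bile acid genes with a promoter in the table that held it, and in the CAR and PXR list it was present in Cyp2c65, Cyp3a11 and Cyp3a16, 3 of 24 with a promoter.

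Apolipoproteins and lipoprotein handling followed the bile acid list, with a median of -0.12 over 20 genes, 16 of them below 0 (55.9% of all genes). At an unadjusted p under 0.05, 6 were lower and 1 higher (background 5.19% and 2.62%), and none passed the adjusted test. Apoa5, which promotes triglyceride clearance by lipoprotein lipase, read 9.12, 9.14, 9.09, 9.05 and 9.62 at the lower dose and 8.55, 7.33, 8.05, 9.05 and 8.49 at the higher. Every litter at the higher dose lay below every litter at the lower dose, by less than the rounding shows in litter 4 and by far in litter 2. The difference was -0.91 (1.88-fold lower, 95% interval -1.48 to -0.34, limma adjusted p = 0.481).

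Apoa4, an apolipoprotein of gut and of fatty liver, stood highest at the lower dose. It stood at 5.39 to 6.49 without PFOS, at 8.21, 6.63, 6.96, 8.45 and 7.27 at the lower dose and at 6.28, 5.75, 5.70, 7.05 and 6.02 at the higher. Against the unexposed level it rose by 1.39 at the lower dose (limma adjusted p = 0.021) and stood at 0.04 at the higher. The difference between the doses was -1.35 (95% interval -2.07 to -0.63, adjusted p = 0.412), and a further probe set gave -1.13. Litters 1 and 4 at the lower dose, the highest in Apoa4, also had the highest Vil1 (5.37 and 5.12), and the part of gut tissue in this gene was not tested. Apoc3, an inhibitor of lipoprotein lipase that is named here after its values were seen, had changes of 0.64 and -0.17 from the unexposed level and -0.81 between the doses (-1.38 to -0.23, adjusted p = 0.522).

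Apoa1, Apoc3, Apoa4 and Apoa5 are neighbours on chromosome 9, in that order, in the RefSeq annotation, with no other protein-coding gene between them. Apoa1, the main protein of high-density lipoprotein and 1 of the brightest transcripts on the array, had -0.09 (95% interval -0.19 to 0.01). Apof, which regulates lipid transfer, had -0.28 (-0.42 to -0.14, limma adjusted p = 0.412) after falls of 0.31 and 0.59 from the unexposed level. Pltp, the phospholipid transfer protein, stood higher at 10 mg/kg/day by 0.47 (0.07 to 0.88, adjusted p = 0.581).

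**Figure D3:**
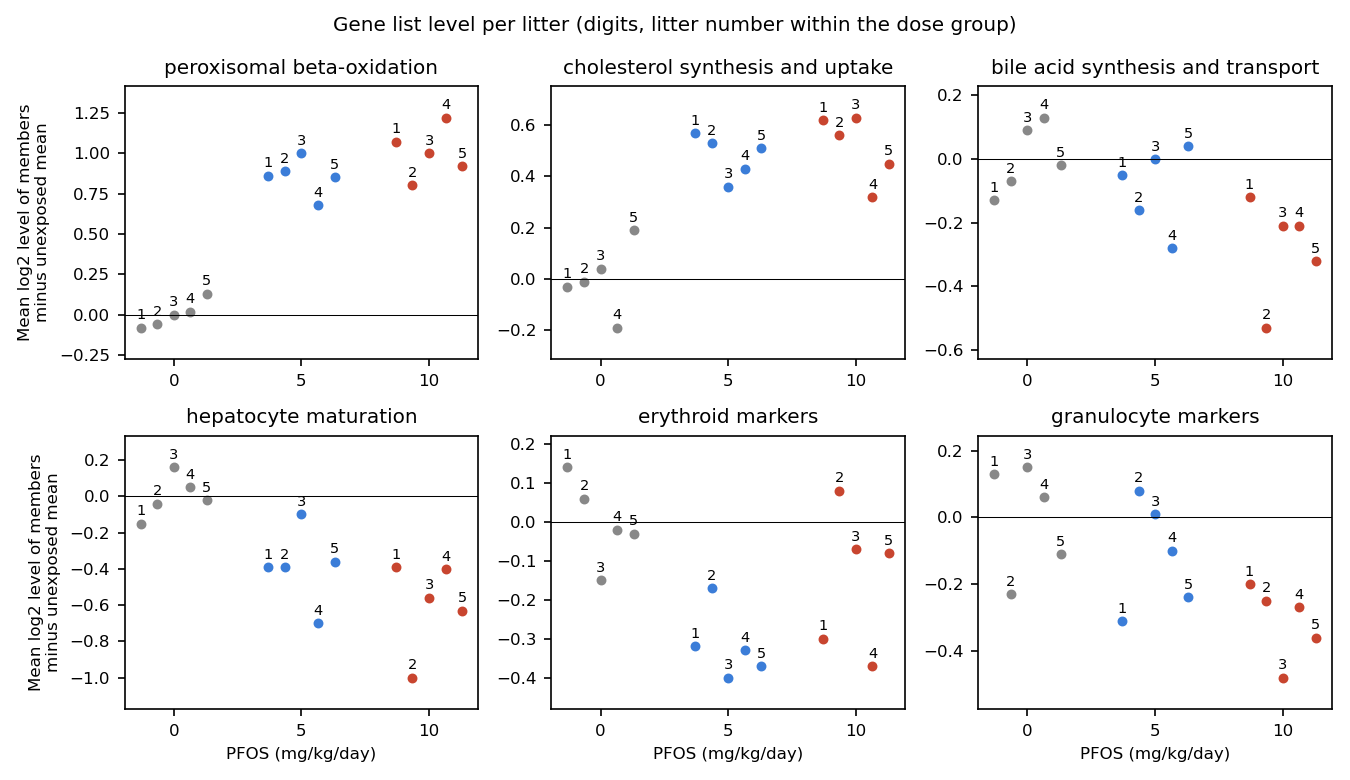
Mean log2 level of the members of 6 gene lists in each litter, minus the mean of the unexposed litters (vertical axes), by PFOS dose in mg/kg/day (horizontal axes); digits give the litter number within its dose. At 10 mg/kg/day litter 2 is lowest in the bile acid and hepatocyte maturation lists and highest in the erythroid list, and litter 4 is highest in peroxisomal beta-oxidation and lowest in the erythroid list.

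Red cell genes stood higher at 10 than at 5 mg/kg/day, where the bile acid and apolipoprotein lists stood lower. The mean level of the erythroid list relative to the unexposed livers was 0.08, -0.07 and -0.08 in litters 2, 3 and 5 at 10 mg/kg/day, -0.30 and -0.37 in litters 1 and 4, and -0.40 to -0.17 at 5 mg/kg/day. Litter 2 had the lowest mean of the exposed litters in the bile acid list (-0.53), the apolipoprotein list (-0.23) and the urea cycle list (-0.50), and also in the hepatocyte maturation list. Without it the medians were -0.08 for bile acid genes, -0.08 for apolipoproteins, -0.06 for the urea cycle and -0.02 for hepatocyte maturation. With the erythroid level as a covariate in the limma fit, an alternative added after the data were seen, the median difference between the doses went from -0.16 to -0.05 for bile acid genes, from -0.12 to -0.02 for apolipoproteins and from -0.14 to 0.02 for hepatocyte maturation. Members below 0 went from 22 to 14 of 25 bile acid genes, with 3 lower and 2 higher at an unadjusted p under 0.05, and from 16 to 11 of 20 apolipoprotein genes, with 3 lower and 1 higher. Without litter 2 these were 17 of 25, with 6 lower and 0 higher, and 14 of 20, with 6 lower and 2 higher. For single genes it went from -0.76 to -0.38 for Cyp7a1, from -0.51 to -0.19 for Cyp8b1, from -0.91 to -0.43 for Apoa5, from -0.81 to -0.34 for Apoc3 and from -1.35 to -0.86 for Apoa4. It moved less for Cyp39a1 (-0.69 to -0.56) and Nr1h4 (-0.25 to -0.19). The oxidation lists moved the other way, from 0.11 to 0.23 for peroxisomal beta-oxidation, from 0.16 to 0.30 for omega-oxidation and from 0.03 to 0.23 for CAR and PXR targets, and Ehhadh went from 0.41 to 0.61. No gene passed the adjusted test in that fit, in which 358 genes were higher and 525 lower at an unadjusted p under 0.05. The covariate comes from the same arrays and itself differed between the doses, so the size of a shift does not sort genes by cause. The part of the erythroid cells in these differences was not tested.

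Complement, coagulation and plasma protein genes were shifted slightly and broadly, with 47 of 51 below 0 (55.9% of all genes) and a median of -0.10. At an unadjusted p under 0.05, 10 were lower (background 5.19%) and 0 higher, and none passed the adjusted test. Leaving out litter 2 of the higher dose gave 3 lower and 1 higher, with 45 of 51 below 0, and the erythroid covariate gave 1 lower and 1 higher, with 36 of 51 below 0. The list's mean level was -0.09 and -0.13 in litters 1 and 4 at the higher dose, within the lower dose's -0.15 to 0.01. Litters 2, 3 and 5 stood at -0.32, -0.24 and -0.25. Genes of 1 list share litters and cells, so in this and other lists such counts are not counts of independent results. Mbl2, the mannose-binding lectin of the complement system, read 8.71, 9.44, 9.46, 9.47 and 9.51 at the lower dose and 8.88, 8.79, 8.66, 8.73 and 8.99 at the higher. Litter 1 at the lower dose lay among the litters of the higher dose and the other 4 lay above all of them. The difference was -0.51 (95% interval -0.81 to -0.20, limma adjusted p = 0.471) after falls of 0.74 and 1.25 from the unexposed level. Pros1, the anticoagulant protein S, had -0.18 (-0.31 to -0.04, adjusted p = 0.563). With the erythroid covariate the list's median was -0.04, while Mbl2 had -0.49.

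Gluconeogenesis and glycogen genes lay below 0 in 12 of 14 cases (55.9% of all genes), with a median of -0.13. Slc37a4, which carries glucose phosphate into the endoplasmic reticulum for glucose release, read 10.10, 9.72, 10.07, 10.14 and 10.14 at the lower dose and 9.78, 9.65, 9.71, 9.61 and 9.81 at the higher. It overlapped through litter 2 at the lower dose, with a difference of -0.32 (95% interval -0.49 to -0.14, limma adjusted p = 0.412). Gbe1, the glycogen branching enzyme, had -0.47 (-0.86 to -0.08, adjusted p = 0.581), and the glucokinase regulator Gckr -0.19 (-0.44 to 0.06). At an unadjusted p under 0.05, 3 were lower (background 5.19%). With the erythroid covariate, where the median was -0.09, 2 were lower, and without litter 2 of the higher dose 1 was.

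The urea cycle and amino acid breakdown list had 25 of 27 genes below 0 (55.9% of all genes) and a median of -0.13. At an unadjusted p under 0.05, 5 were lower (background 5.19%), and none passed the adjusted test. With the erythroid covariate 16 of 27 were below 0 and 0 were lower at that p, and without litter 2 of the higher dose 19 were below 0 and 1 was lower. Cps1, which feeds ammonia into the urea cycle, had -0.22 (95% interval -0.41 to -0.04, limma adjusted p = 0.581), and Slc25a15, the ornithine carrier, -0.26 (-0.46 to -0.06, adjusted p = 0.563). With the erythroid covariate these were -0.10 and -0.07. In the hepatocyte maturation list Cyp2f2 had -0.45 (-0.83 to -0.07, adjusted p = 0.581; -0.66 with the covariate) and the fetal proteoglycan gene Gpc3 -0.30 (-0.58 to -0.02, adjusted p = 0.622). That list pools genes of mature hepatocytes with the fetal gene Gpc3, so a lower median is not by itself a lower maturity. The general hepatocyte markers moved less, with a median of -0.05 over 8 genes and Alb at -0.01 (-0.10 to 0.08).

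Among nuclear receptors and liver transcription factors the median was -0.05 over 25 genes. Esr1, the estrogen receptor alpha, read 5.51, 6.01, 6.10, 6.09 and 6.43 at the lower dose and 5.80, 4.95, 5.47, 5.49 and 4.77 at the higher. It is a dim transcript, the litters overlapped, and the difference was -0.73 (95% interval -1.14 to -0.32, limma adjusted p = 0.412; -0.46 with the erythroid covariate). Growth factor and liver hormone genes had a median of -0.09 over 20 genes. Ghr, the growth hormone receptor, had all 5 litters at 10 mg/kg/day (8.85 to 8.98) below all at 5 mg/kg/day (9.05 to 9.10), a difference of -0.17 (-0.28 to -0.05, adjusted p = 0.493).

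Igf2, the fetal growth factor, met the plateau bound (0.02, 95% interval -0.12 to 0.16) after falls of 0.34 and 0.32 from the unexposed level. Irs1, an adaptor of insulin signalling, had -0.27 (-0.47 to -0.08, limma adjusted p = 0.522). Enho, which encodes the peptide adropin, had -0.28 (-0.54 to -0.02, adjusted p = 0.62), with further probe sets between -0.17 and 0.16. Lepr, the leptin receptor, had 0.26 (-0.27 to 0.79) on top of rises of 1.46 and 1.72.

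Housekeeping and stress lists had medians near that of all genes. Proteasome subunits had a median of -0.03 over 33 genes and the respiratory chain -0.02 over 39, and neither list had a gene with an unadjusted p under 0.05. Endoplasmic reticulum stress had -0.04 over 26 genes, 17 of them below 0 (55.9% of all genes). At an unadjusted p under 0.05, 5 were lower (background 5.19%) and 0 higher, and none passed the adjusted test. Without litter 2 of the higher dose 5 were again lower, and with the erythroid covariate 2 were lower and 1 higher. Interferon and chemokine genes had 0.03 over 25, among them the chemokine gene Cxcl10, with 0.63 (95% interval -0.08 to 1.33) on top of rises of 1.85 and 2.48. Cell cycle and DNA replication had 0.03 over 41 genes with none at an unadjusted p under 0.05. All 7 genes called lower at 5 mg/kg/day met the plateau bound, against 83.8% of all genes called lower there. Called or not, 40 of the 41 met it (91.6% of all genes).

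Blood cell markers split by lineage. All 20 erythroid markers had a difference above 0 (44.1% of all genes), between 0.06 and 0.31, with a median of 0.17. Of these, 1 gene, Hemgn, had an unadjusted p under 0.05 (background 2.62% higher). Against the unexposed livers the erythroid median was -0.33 at the lower dose and -0.17 at the higher. At the lower dose 4 markers fell and at the higher 0 (1.81% and 5.22% of all genes). Hemgn, a nuclear protein of red cell precursors, read 10.61, 10.67, 10.79, 10.59 and 10.68 at the lower dose and 10.88, 11.04, 10.83, 10.66 and 10.98 at the higher. Litter 4 at the higher dose lay within the lower dose's range, and the difference was 0.21 (95% interval 0.05 to 0.36, limma adjusted p = 0.522). Rhag, a red cell membrane protein, had 0.17 (-0.00 to 0.35).

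Heme synthesis went with the erythroid list, with 11 of 12 genes above 0 (44.1% of all genes) and a median of 0.10. With the erythroid covariate these were 6 of 12 and -0.00. Some of these genes act in red cells, like the genes of the covariate, so that fit is no separate result. Alas2, the first enzyme of heme synthesis in red cells, had 0.25 (95% interval 0.05 to 0.44, limma adjusted p = 0.58), and Slc25a37, which imports iron into mitochondria, 0.24 (0.01 to 0.47, adjusted p = 0.622). The erythroid median was 0.11 when litter 2 of the higher dose was left out, with 19 of 20 above 0.

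Granulocyte markers went the other way, with all 18 below 0 (55.9% of all genes) and a median of -0.17. From the unexposed level their median was -0.14 at 5 and -0.32 at 10 mg/kg/day, and 0 and 6 fell (1.81% and 5.22% of all genes). Mmp8, the neutrophil collagenase, had -0.42 (95% interval -0.77 to -0.08, limma adjusted p = 0.581), and Chil3, a chitinase-like protein of myeloid cells, -0.41 (-0.76 to -0.06, adjusted p = 0.581). The list's median was -0.18 when litter 2 of the higher dose was left out and -0.13 with the erythroid covariate, again with all 18 below 0. Genes of 1 lineage share their cells, so such counts are not counts of independent results.

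Macrophage markers had a median of -0.02 over 14 genes. Cd163, the haemoglobin scavenger receptor, read 4.91, 5.11, 4.82, 5.13 and 5.10 at the lower dose and 4.95, 3.98, 3.74, 4.57 and 4.54 at the higher. These are dim levels, and the litters overlapped through litter 1 at the higher dose, with a difference of -0.66 (95% interval -1.09 to -0.22, limma adjusted p = 0.482). Endothelial markers had a median of -0.06 over 16 genes, with the vessel receptors Tek at -0.21 (-0.39 to -0.02) and Flt1 at -0.27 (-0.54 to -0.01), whose further probe sets gave -0.23 to 0.08. Stellate and mesenchymal markers had -0.05 over 21 genes, with Reln, a marker of stellate cells, at -0.16 (-0.28 to -0.04, adjusted p = 0.563). Medians were -0.04 for 9 megakaryocyte, 0.09 for 11 lymphocyte and mast cell, -0.11 for 5 cholangiocyte, -0.10 for 17 stomach and pancreas (from -1.06 to 0.12), -0.41 for 6 intestine and -0.06 for 5 lung markers. The intestine list holds Apoa4 and Fabp2, which liver also makes. In the stomach and pancreas list Cela1 and Cela3b, which encode elastases, were lower at an unadjusted p under 0.05, at -0.28 and -0.31. Of the intestine list, Lct, Fabp6, Muc2 and Cdx1 were too dim to be tested.

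Outside the lists, the genes with the smallest p that stood higher at 10 mg/kg/day were led by Cd1d2, which encodes a lipid-presenting molecule. It read 4.52, 4.14, 3.99, 4.87 and 4.37 at 5 mg/kg/day, near the unexposed 3.95 to 4.34, and 5.28, 5.34, 5.62, 6.51 and 5.14 at 10 mg/kg/day. The doses did not overlap, and the difference was 1.20 (2.30-fold, 95% interval 0.74 to 1.65, limma adjusted p = 0.189; 0.00359 to 0.576 over the alternatives that test it). Its change from the unexposed level was 0.27 at the lower dose (adjusted p = 0.537) and 1.47 at the higher (0.000259). Cd1d2 has a close paralog, and at these dim levels log2 differences can be understated. It lay above the 40th percentile in litter 2 without PFOS and in litters 1, 4 and 5 at 5 mg/kg/day. It thus reached the 5 arrays that the filter asks for only through the arrays at 10 mg/kg/day, where it is high.

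Pla2g7, which breaks down platelet-activating factor, had 8.04, 8.84, 8.01, 8.69 and 8.45 at the lower dose and 9.12, 9.17, 8.85, 9.28 and 8.94 at the higher, just without overlap. Its difference was 0.66 (95% interval 0.30 to 1.03, limma adjusted p = 0.412). Rnf186, a ubiquitin ligase, had 0.67 (0.31 to 1.03), the complement regulator Cd46 0.47 (0.25 to 0.70), the cation channel Trpv2 0.36 (0.16 to 0.55) and the growth factor gene Bmp8b 0.36 (0.17 to 0.56), each with the same adjusted p = 0.412. Trpv2 and Bmp8b did not overlap between the doses. Bmp8b differed from the unexposed level by 0.01 at 5 mg/kg/day, while Trpv2 and Rnf186 had risen there by 0.98 and 1.43.

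Among those that stood lower, Gramd1c, a sterol transfer protein, read 6.57, 6.40, 6.58, 6.37 and 6.68 at the lower dose and 5.98, 5.70, 5.87, 6.26 and 5.85 at the higher, without overlap. The difference was -0.59 (95% interval -0.83 to -0.35, limma adjusted p = 0.218; -0.40 with the erythroid covariate). Zfp282, a zinc finger protein, had -0.43 (-0.61 to -0.25, adjusted p = 0.261), although its further probe set gave -0.06. Tstd3 had -0.35 (-0.49 to -0.21, adjusted p = 0.19), and Epb41l4b, Nat8f1 and the plasma esterase Bche had -0.36, -0.36 and -0.37, each with an adjusted p = 0.412. Of these, only Bche overlapped between the doses, and its further probe sets gave -0.48 and -0.40.

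Like Apoa4, Nt5e, an ecto-nucleotidase that makes adenosine, was called higher at the lower dose and stood near the unexposed level at the higher. It stood at 7.58 to 7.87 without PFOS, at 8.07, 8.16, 8.13, 8.03 and 8.13 at the lower dose and at 7.72, 7.71, 7.80, 7.85 and 7.72 at the higher. The lower dose thus lay above both other groups with no overlap. From the unexposed level it rose by 0.41 at the lower dose (limma adjusted p = 0.000584) and differed by 0.07 at the higher (0.574), with a difference of -0.34 between the doses (95% interval -0.47 to -0.21, adjusted p = 0.189). The interval lies within the plateau bound, so Nt5e counts among the genes that met it although its level was not kept. The 2 further probe sets of Nt5e gave -0.10 and 0.07, so the course rests on 1 probe set.

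**Figure D4:**
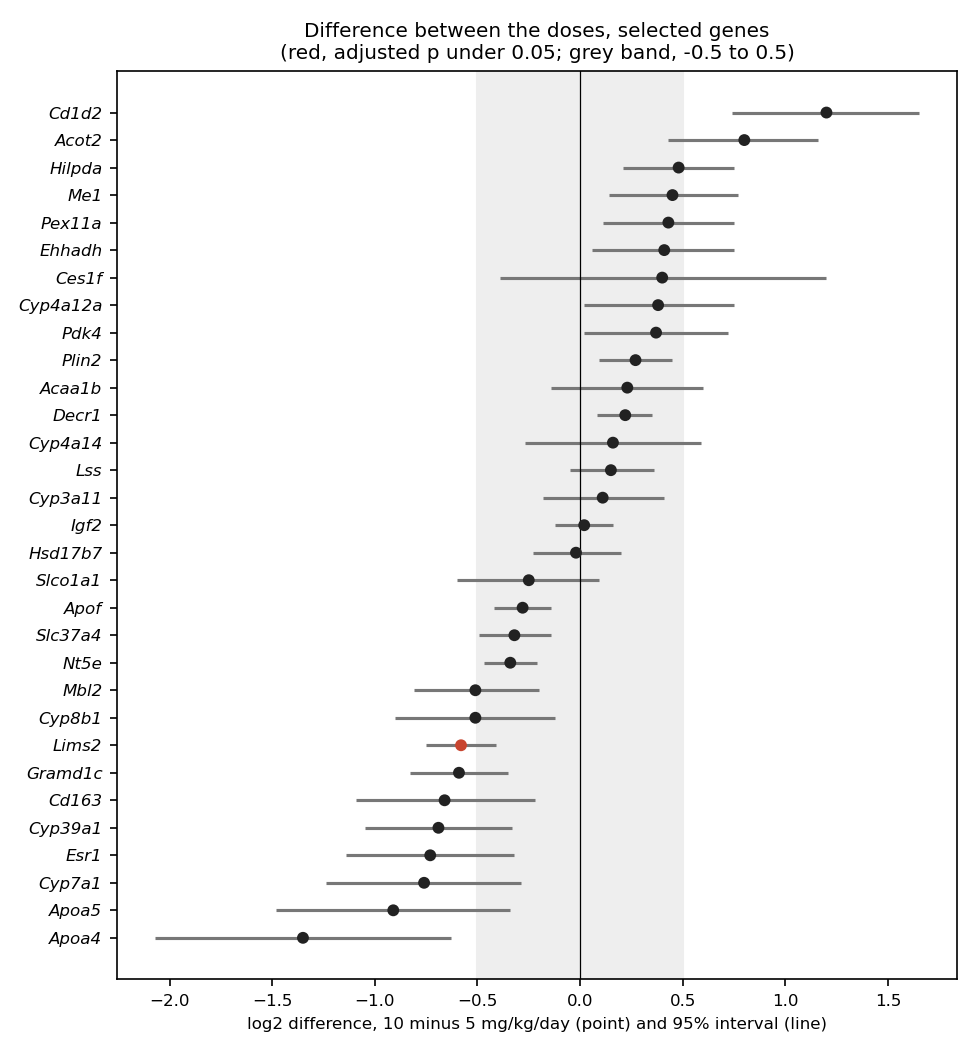
Log2 difference between 10 and 5 mg/kg/day (horizontal axis, point) with its 95% interval (line) for 31 named genes (vertical axis); red marks an adjusted p under 0.05 and the grey band spans -0.5 to 0.5. Lims2 is the red point, and intervals wholly inside the band, such as those of Hsd17b7, Igf2, Cyp3a11 and Lss, met the plateau bound. Some intervals inside the band, such as those of Nt5e and Apof, exclude equal levels.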

How the data were processed

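Log2 values per probe set of an Affymetrix mouse array were deposited by the authors, made with RMA per the submitters' processing notes. RMA corrects background, normalizes between arrays and compresses changes of dim probe sets. The version of RMA, and whether liver and lung were normalized in 1 run, is not given in the sources used here. Of 45101 probe sets, 34945 had 1 gene symbol in the platform annotation, 932 several and 9160 none, and 64 were controls. For each of 18193 genes the probe set brightest on average over all 30 arrays stood for the gene, and it was tested where it lay above the 40th percentile of its array on at least 5 of the 15 liver arrays. Of 880 list entries, 786 matched a gene.

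A limma model (version 3.58.1, R 4.3.3) with a mean for each dose was fitted to all 15 liver arrays. Two-sided p-values were adjusted by Benjamini-Hochberg over all genes tested, and differences are given with the limma 95% interval. Named genes were the 10 smallest p in each direction, up to 4 members per list and a fixed set, and the text uses part of them, picked after their values were seen. Cyp4a10 and Cidec, of the fixed set, were not tested, and 1 item of that set is not reported here. Gene lists and members were chosen with earlier results of these data known. Other settings were other filters, normalizations, arrays in the fit, uses of several probe sets, variance models, array weights, the pools' sex make-up, the replicate number as a block and leaving out each litter. The erythroid level as a covariate and control litters 1 and 4 alone were added after the data were seen. Litters with the same number at both doses did not deviate together (r from -0.137 to 0.085 over 5 pairs, across genes), so numbers were not used as pairs. Tested on simulated data for this comparison over 13269 genes, limma called 19 of 50 genes changed by 0.3, 41 of 50 changed by 0.6 and 49 of 50 changed by 1. It also called all 50 changed by 2, and 12 of the unchanged genes. Between the doses of the measured livers it called 1 gene. Cd1d2, with a difference of 1.20, and Apoa4, with -1.35, were not called there. How often a change of a given size is called with so few called genes was not tested. Promoters are RefSeq's for GRCm38.p6, of which 79 of 93 genes searched had an entry. Figures were drawn with matplotlib 3.10.9.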

Additional observations from a re-analysis of the deposited data

Results flagged for a closer look

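Of 279 dose groups of 5 litters checked over 93 genes, 17 had 1 litter far from the other 4, by a gap of over 0.71 of the group's range. Chance gives such a litter in about 1 of 20 groups. At 10 mg/kg/day these were litter 2 in Cpt1a (8.97, others from 9.33 to 9.40) and Bdh1 (10.80, others from 10.94), litter 4 in Acss2 (8.93, others from 9.32) and litter 5 in Gbe1 (7.23, others up to 6.58). At 5 mg/kg/day they were litter 5 in Apoa5 (9.62, others up to 9.14) and Tstd3 (7.50, others up to 7.34), litter 1 in Mbl2 (8.71, others from 9.44), litter 2 in Slc37a4 (9.72, others from 10.07) and litter 3 in Flt1 (6.14, others from 6.34). Mbl2, Slc37a4 and Gbe1 overlapped between the doses through that litter alone.

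Among unexposed litters, litter 3 was high in Cyp8b1 (9.98), Apoa5 (10.68) and Apoc3 (10.98). Litter 4 was low in Lss (8.97), Trpv2 (5.01) and Rhag (9.86), and litter 1 was low in Cyp2c29 (4.11) and Enho (7.69).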

How the results depend on the processing

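Over 29 alternative settings, 2661 of 2692 values of 93 named genes kept their direction and side of the threshold, and 1156 of 1160 medians of 40 gene lists moved by less than the litters' spread. Only Lims2 was called in the main fit, so the other genes had little room to change side, and Lims2 stayed called in 17 of 29. The rule for lists is wide, since the bile acid median counts as unmoved at -0.05 with the erythroid covariate, from -0.16. The number of called genes, 1, went to 6 with both tissues in 1 fit (Cd1d2 0.00359, Gramd1c 0.0191, and Acot2, Cd46 and Zfp282 0.0285, plus Smoc2 0.0482) and to 0 with every probe set or with the erythroid covariate. Leaving out 1 litter gave 0 to 4. It was 4 without litter 4 at 10 mg/kg/day (Lims2, Cd1d2, Gramd1c and Lamb1, each 0.0425), 2 without litter 1 at 5 mg/kg/day (Lims2 0.0314 and C4bp 0.00854) and 0 without any other exposed litter. Smoc2, Lamb1 and C4bp are named after their values were seen. Genes at an unadjusted p under 0.05 were 559 higher without the filter, with 18193 genes tested, and 761 higher and 1239 lower with every probe set, with 27901. The adjusted p of Lims2 was 0.172 with the erythroid covariate. That covariate gave 235 genes called at 5 mg/kg/day, 162 of them within the bound. Control litters 1 and 4 alone gave 295, 237 within the bound, and 540 at 10 mg/kg/day. Named genes whose sign turned had values near 0 where it did: Bdh1 (-0.02 with probe sets averaged, -0.00 without litter 1 at 5 mg/kg/day), Hsd17b7 (0.07 with probe sets averaged, 0.01 with array weights, 0.04 with the covariate, 0.02 to 0.04 without litter 1 or 5 at 5 mg/kg/day or litter 2 or 4 at 10 mg/kg/day, and down to -0.09 without litter 4 at 5 mg/kg/day), Cpt1a (0.01 without litter 2 at 10 mg/kg/day, 0.06 with the covariate, from a main value of -0.07 that averaging probe sets put at -0.32 and omitting litter 4 of the lower dose at -0.13) and Igf2 (-0.01 without litter 1 at 10 mg/kg/day). With the replicate number as a block 0 genes were called and Lims2 had an adjusted p of 0.0963, and 1 of 5 litters at 10 mg/kg/day correlated best with its own number. The cause of these shifts was not tested, except that more features or fewer samples follow from the settings themselves. With 5 litters per dose, differences under about 0.19 were within the typical interval.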

Other observations

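Probe sets without a single gene symbol were tested apart. Of 4284 such probe sets, limma called 0 between the doses, while 133 were higher and 159 lower at an unadjusted p under 0.05.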
